A study of Mus musculus with 6 samples.

Results

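The C/EBP (CCAAT/enhancer-binding protein) family was followed through 6 RNA-seq libraries of BMSCs, stromal cells of mouse bone marrow from which bone, fat and cartilage cells can arise. Members were the rows of the deposited table whose symbol is Cebpa, Cebpb, Cebpd, Cebpe, Cebpg or Ddit3. This rule found 7 of the table's 56691 rows, since Ddit3 is listed under 2 gene identifiers, and 5 members were among the 12153 genes tested. The 2nd Ddit3 row, ENSMUSG00000116429, was at 0 in every library and returns below only where overlaps are described. Cells of both groups were labelled bone tissue, mesenchymal stem cells and wild type. Both were kept for 7 days in osteoblast differentiation medium with serum, ascorbic acid and beta-glycerophosphate, renewed every 2 days. In 1 group of 3 libraries this medium was given with conditioned medium (CM) of Hepa 1-6, a mouse hepatoma line. The other 3 libraries came from cells given control medium. The sources used here do not give strain, age or sex, whether replicates were separate cultures or animals, or whether control medium had been on any cells. The p-values therefore measure the spread between these libraries, which may be technical, and effects of hepatoma products and of conditioning in general cannot be told apart.

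C/EBP proteins are transcription factors with a basic region that contacts DNA and a leucine zipper through which members pair with each other and with related factors. C/EBPα, C/EBPβ and C/EBPδ activate fat cell, liver and myeloid programmes, and C/EBPβ and C/EBPδ also mediate the acute phase response to cytokines. C/EBPγ and CHOP, the product of Ddit3, pair with these activators and mostly hold back or redirect them. In bone cells, C/EBPβ and C/EBPδ are known to act with Runx2 on osteoblast genes. The libraries measure transcripts, and the long and short protein forms made from Cebpa and Cebpb mRNA by choice of start codon are not seen.

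Library totals lay between 18661629 and 21329475 counts. Of 8 osteoblast markers, 7 were detected in control libraries above the filter of a mean of 1 FPKM (fragments per kilobase of exon, scaled by the library's total count). They ranged from the homeobox gene Dlx5 at 4.10 to the bone collagen gene Col1a1 at 793 FPKM, and the osteocalcin gene Bglap, a late marker, had 2 counts over each group. The macrophage lysozyme gene Lyz2 averaged 6683 FPKM, so the cultures held many macrophage transcripts, and no library can assign a C/EBP transcript to a cell type. In such bulk RNA, fewer cells of a type and less RNA per cell cannot be told apart. Of all tested genes, 45.9% were called by edgeR's quasi-likelihood test at an adjusted p under 0.05, 23.0% as rises and 22.9% as falls. Rises made up 50.1% of edgeR's calls, but 38.6% when limma was run on TPM, which scales each library to an equal sum per length. Log2 fold changes below are CM minus control with their standard error (SE), and adjusted p-values are edgeR's over all tested genes.

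The family changed in composition rather than in one direction. Cebpa fell, Cebpb and Cebpd rose, Cebpg fell by a small amount, Ddit3 was not called and Cebpe was barely detected. That is 4 called of 5 tested members, 2 in each direction, against 45.9% of all tested genes. Groups did not overlap in the same 4 members, against 53.2% of all tested genes. At an adjusted p under 0.05 with an absolute log2 fold change of at least 0.5, 14.8% of tested genes were called, and Cebpa, Cebpb and Cebpd were among them. With a minimum of 1 in place of 0.5, 5.28% were called, and Cebpa was the member among them.

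**Figure D1:**
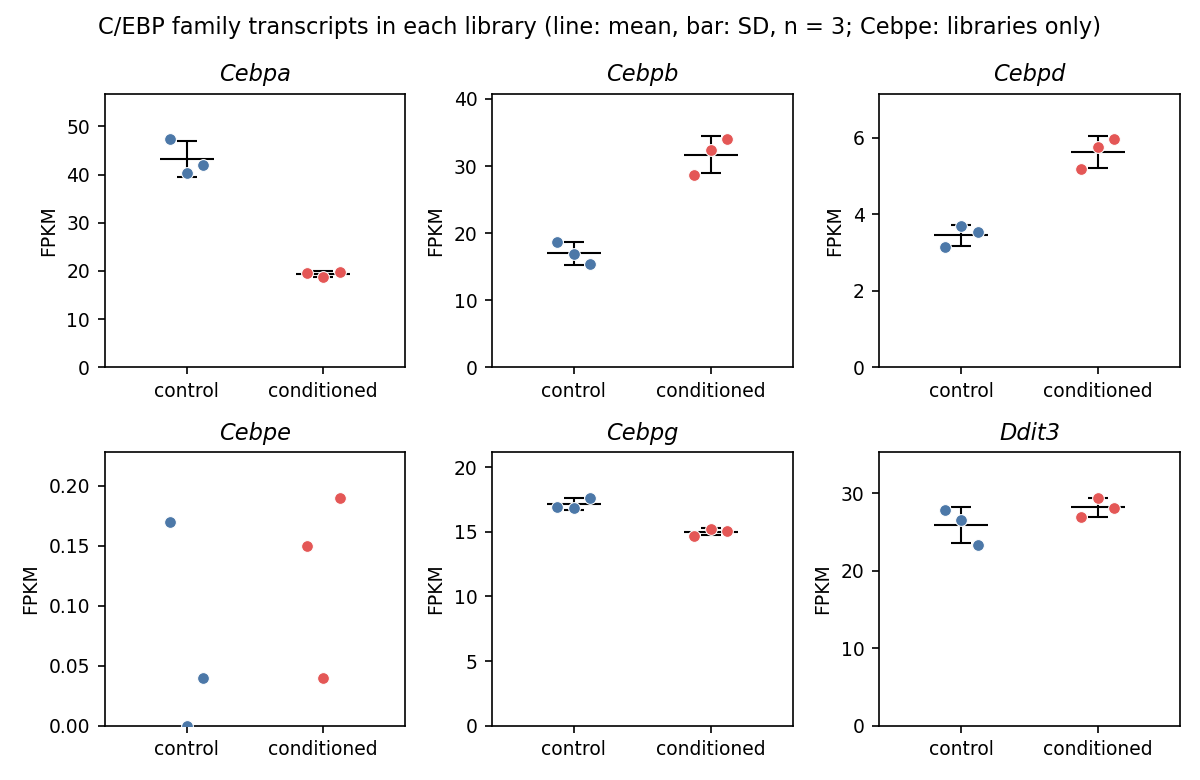
FPKM of each C/EBP family member (y axis, from 0) in the 3 control and 3 CM libraries (x axis), with points for libraries and, except for Cebpe, a line for the mean and bars for the SD. The groups are apart for Cebpa, Cebpb, Cebpd and Cebpg, and they overlap for Ddit3 and Cebpe.

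Cebpa encodes C/EBPα, which commits progenitors to the granulocyte and monocyte line and completes fat cell differentiation. Its FPKM was 47.4, 40.4 and 41.9 in control replicates 1 to 3 and 19.5, 18.7 and 19.8 in CM replicates 1 to 3. Every CM library was below every control library, and the CM replicates lay close together. The means were 43.2 ± 3.66 (SD, n = 3) and 19.3 ± 0.582 FPKM. This was a 2.21-fold fall (95% interval 2.03 to 2.40; log2 fold change -1.14 ± 0.057 SE, adjusted p = 5.0e-13 by edgeR). In absolute log2 fold change, 4.54% of tested genes moved further. In control medium 92.1% of tested genes were below Cebpa in mean FPKM, and in CM 80.0% were. Cebpa lies on chromosome 7 at 34818718 to 34821353 (GRCm39, plus strand), and its exonic length of 2636 bases equals its span, so it has a single exon.

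Cebpb encodes C/EBPβ, which cytokines and bacterial products induce and which drives emergency granulocyte production and the early steps of fat cell formation. Its FPKM was 18.7, 16.9 and 15.4 in control replicates 1 to 3 and 28.7, 32.4 and 34.0 in CM replicates 1 to 3. The lowest CM library exceeded the highest control library. Means were 17.0 ± 1.67 (SD, n = 3) and 31.7 ± 2.71 FPKM, a 1.89-fold rise (95% interval 1.69 to 2.11; log2 fold change 0.92 ± 0.076, adjusted p = 1.9e-09 by edgeR). Of tested genes, 6.66% had a larger absolute log2 fold change. The gene lies on chromosome 2 at 167530835 to 167532338 (GRCm39, plus strand) and is also a single exon, of 1504 bases.

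Cebpd encodes C/EBPδ, which acts with C/EBPβ in the acute phase response and early in fat cell formation. Its FPKM was 3.13, 3.68 and 3.52 in control replicates 1 to 3 and 5.17, 5.75 and 5.96 in CM replicates 1 to 3. The groups were again apart. Means were 3.44 ± 0.283 (SD, n = 3) and 5.63 ± 0.409 FPKM, a 1.65-fold rise (95% interval 1.45 to 1.88; log2 fold change 0.72 ± 0.091, adjusted p = 1.1e-06 by edgeR). Per length, Cebpd stayed the least abundant of the tested members, with 29.6% of tested genes below it in control medium and 44.6% in CM. It lies on chromosome 16 at 15705150 to 15708895 (GRCm39, plus strand) as a single exon of 3746 bases.

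Cebpe encodes C/EBPε, which acts late in granulocyte maturation. It had 4, 0 and 1 counts in control replicates 1 to 3 and 4, 1 and 5 counts in CM replicates 1 to 3, and so lay below the filter of a mean of 1 FPKM. Scaled by library size, 10 counts over the CM libraries against 5 over the control libraries gave a ratio of 1.95 (exact 95% counting interval 0.608 to 7.28, which covers counting error only). A difference was not detectable at this depth. Without the filter, the adjusted p was 0.61 in edgeR. Its locus is the minus strand of chromosome 14, from 54947817 to 54949631 (GRCm39).

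Cebpg encodes C/EBPγ, a short member without an activation domain that pairs with other C/EBP proteins and with ATF4. Its FPKM was 16.9, 16.8 and 17.6 in control replicates 1 to 3 and 14.7, 15.2 and 15.1 in CM replicates 1 to 3. The ranges were narrow and did not overlap. Means were 17.1 ± 0.450 (SD, n = 3) and 15.0 ± 0.284 FPKM, a 1.13-fold fall (95% interval 1.06 to 1.21; log2 fold change -0.18 ± 0.047, adjusted p = 0.0039 by edgeR). More than 1 in 2 tested genes, 51.6%, had a larger absolute log2 fold change. Cebpg lies on the minus strand of chromosome 7 at 34745847 to 34755998 (GRCm39), 62719 bases from Cebpa, so the neighbours on chromosome 7 both fell while their sizes of change differed.

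Ddit3 encodes CHOP, the stress-induced family member whose altered basic region keeps it from classical C/EBP sites. Its FPKM was 27.8, 26.6 and 23.3 in control replicates 1 to 3 and 27.0, 29.4 and 28.1 in CM replicates 1 to 3. The groups overlapped, with control replicate 3 lowest. Means were 25.9 ± 2.34 (SD, n = 3) and 28.2 ± 1.25 FPKM (log2 fold change 0.14 ± 0.064, unadjusted 95% interval 0.0058 to 0.27, adjusted p = 0.083 by edgeR). Ddit3 was called when control replicate 1 was left out (adjusted p = 0.032). The gene lies on chromosome 10 at 127126643 to 127132157 (GRCm39, plus strand).

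**Figure D2:**
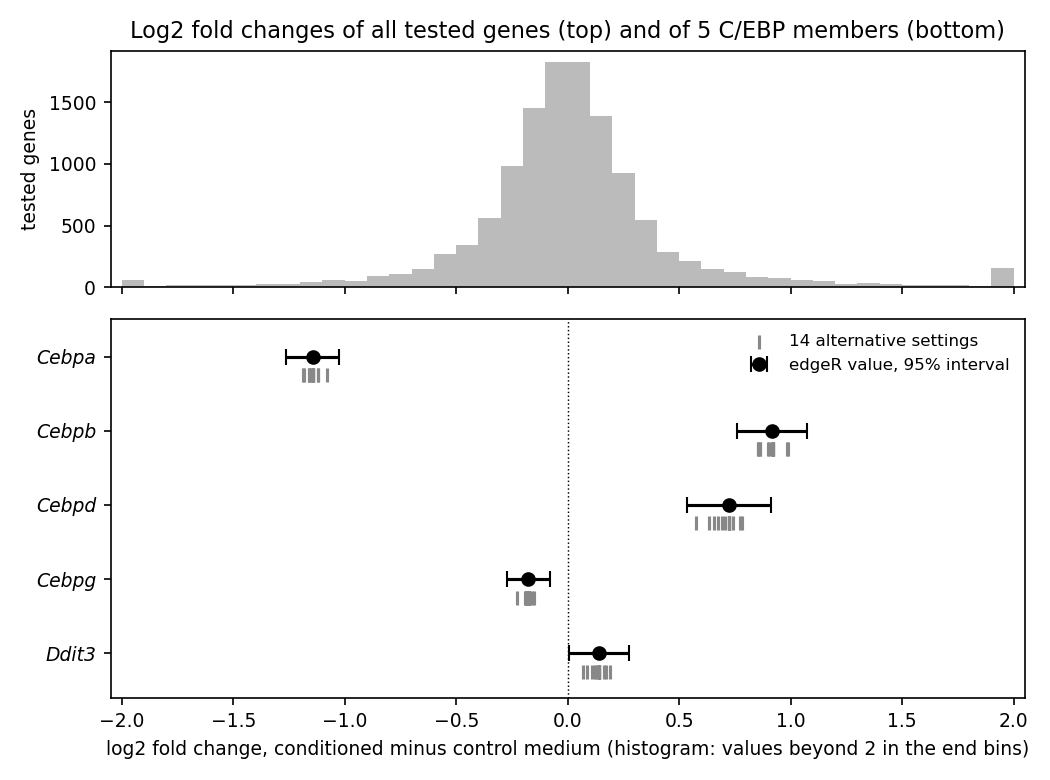
Top, log2 fold changes (x axis, CM minus control) of the 12153 tested genes as a histogram (y axis, genes). Bottom, 5 members with 95% intervals (points and bars) and the same value under 14 alternative settings (ticks). Cebpa lies at -1.14, Cebpb at 0.92 and Cebpd at 0.72, while Cebpg and Ddit3 lie near the bulk of genes.

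Promoter sequence is shown for the pair with the largest opposite changes, Cebpa and Cebpb, so that their upstream DNA can be compared. RefSeq sequences on GRCm38.p6 were found for 4 members, Cebpa, Cebpb, Cebpg and Ddit3, each from 250 bases before to 50 after the start. The 250 bases before the start are chr7:35119043-35119292 (plus strand) for Cebpa and chr2:167688665-167688914 (plus strand) for Cebpb, with capitals where a motif matched.
Cebpa: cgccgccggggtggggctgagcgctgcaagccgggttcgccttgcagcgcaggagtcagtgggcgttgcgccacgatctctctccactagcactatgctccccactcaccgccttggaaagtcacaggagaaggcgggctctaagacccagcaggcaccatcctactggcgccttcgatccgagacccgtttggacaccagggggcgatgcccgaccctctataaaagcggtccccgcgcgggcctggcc
Cebpb: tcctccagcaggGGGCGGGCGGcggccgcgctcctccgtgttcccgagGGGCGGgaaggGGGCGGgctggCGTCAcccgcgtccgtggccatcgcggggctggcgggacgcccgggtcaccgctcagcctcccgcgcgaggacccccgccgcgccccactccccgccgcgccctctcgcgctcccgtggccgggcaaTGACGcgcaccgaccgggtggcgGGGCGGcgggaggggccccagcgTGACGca

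Motifs were searched on both strands in the 300 bases. They were TTNNGCAA for C/EBP, TTCNNNGAA for STAT, TGACGTCA for the cyclic AMP response element, TGACG for its shorter core, TGATGNAA for the amino acid response element, GGNNTTTCC for NF-kB and GGGCGG for the GC box. The Cebpb window held TGACG at -53 to -49 and -7 to -3, and on the other strand at -180 to -176, counted from the base before the start as -1. At least 1 TGACG was found in 20.8% of 32817 promoters, and 3 or more in 1.03%. It also held 5 GC boxes, the pair at -238 to -233 and -234 to -229 overlapping. At least 5 were present in 2.71% of promoters, and at least 1 in 35.6%. The Cebpb window was 80.7% G and C, a share reached by 0.740% of promoters, whose median was 52.7%. The Cebpa window, 67.3% G and C, held no exact match to the 7 motifs, nor did that of Ddit3, and Cebpg held 1 GC box after the start. Sites that depart from these patterns, or that lie outside the 300 bases, were not searched for. TTNNGCAA is present in 10.8% of promoters, TTCNNNGAA in 8.29%, TGACGTCA in 1.79%, TGATGNAA in 3.97% and GGNNTTTCC in 5.83%, and none of these matched in the 4 windows.

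Cebpb and Cebpd each overlap a gene on the other strand, and no source used here says if reads were counted by strand. Peds1, a plasmanylethanolamine desaturase gene, shares 908 bases or 60.4% of the span of Cebpb. It averaged 23.6 ± 0.386 (SD, n = 3) FPKM in control and 30.7 ± 1.91 in CM libraries (log2 fold change 0.39 ± 0.051, adjusted p = 1.8e-06 by edgeR). Spidr, a DNA repair scaffold gene, shares 48.3% of the span of Cebpd and rose by 0.49 ± 0.064 (adjusted p = 1.9e-06 by edgeR). Exons shared with these partners made up 20.7% of the exonic bases of Cebpb and 15.0% of those of Cebpd in the GENCODE vM21 annotation (GRCm38). Reads in these stretches cannot be assigned to a strand here, and their part in the rises was not tested. Shared exons covered 1.93% of Cebpa, 1.37% of Cebpg and 10.9% of Ddit3. Of the exonic bases of Ddit3, 6.13% were shared with the 2nd Ddit3 identifier on the same strand and 3.97% with Mars1 on the other. The stretch shared with the 2nd identifier is 105 bases, equal to that identifier's deposited exonic length. Its 0 counts therefore do not show a lack of transcript.

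Per length, the leading member of the family differed between the media. The order of mean FPKM in control medium was Cebpa, Ddit3, Cebpg, Cebpb, Cebpd and Cebpe, and Cebpg and Cebpb did not differ beyond their spread. In CM it was Cebpb, Ddit3, Cebpa, Cebpg, Cebpd and Cebpe, and Cebpb and Ddit3 overlapped. The summed FPKM of the family was 102 to 114 in control libraries and 95.2 to 103 in CM libraries, so the ranges overlapped. Of that sum, Cebpa made up 40.5% ± 1.53 (SD, n = 3) in control medium and 19.4% ± 1.07 in CM. Cebpb made up 15.9% ± 0.689 and 31.7% ± 1.42. The share of Ddit3 was 24.2% ± 1.30 and 28.2% ± 0.883, and that of Cebpg 16.1% ± 1.26 and 15.0% ± 0.400.

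**Figure D3:**
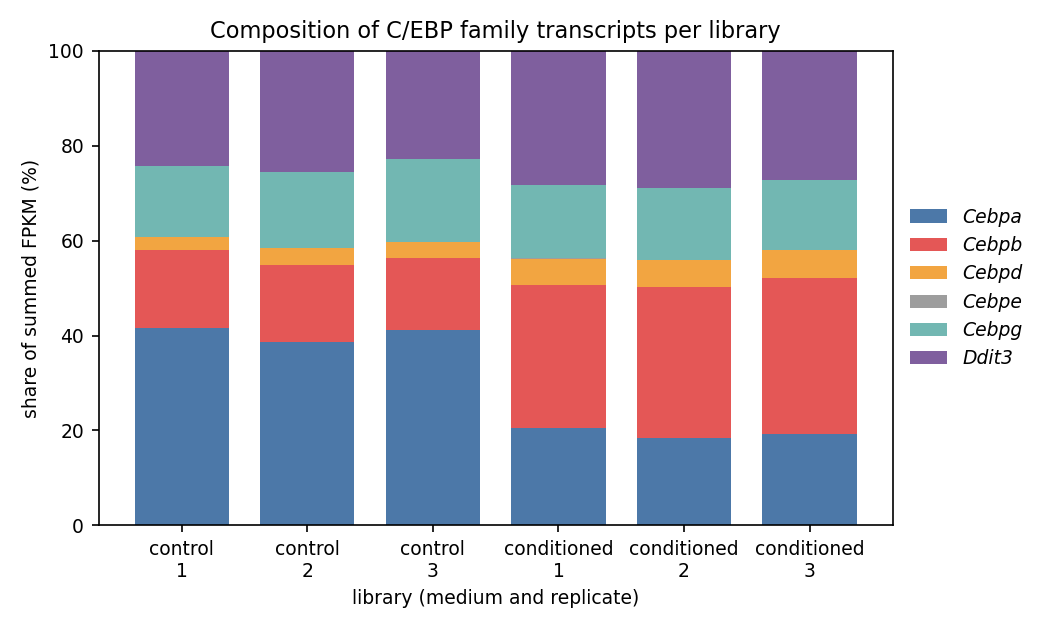
Share of the summed C/EBP family FPKM (y axis, percent) taken by each member in each library (x axis). Cebpa takes 38.7% to 41.5% in the control libraries and 18.4% to 20.5% in the CM libraries, while Cebpb takes 15.1% to 16.4% and 30.2% to 33.0%. Cebpe is too small to be seen.

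Ratios within a library do not depend on its scaling, and all 10 pairs of the 5 tested members were compared. The FPKM ratio of Cebpa to Cebpb was 2.53, 2.39 and 2.72 in control replicates 1 to 3 and 0.680, 0.577 and 0.582 in CM replicates 1 to 3. Cebpa transcripts outnumbered Cebpb transcripts in every control library, and the reverse held in every CM library. On the log2 scale the ratio differed by -2.06 between the groups (exact two-sided permutation p = 0.1, the smallest that 3 against 3 allows, and 0.11 adjusted over 10 pairs). Cebpb to Ddit3 went from a geometric mean of 0.656 to 1.12, and Cebpb to Cebpg from 0.989 to 2.11, both without overlap and with the same exact p of 0.1. The ratio of Cebpb to Cebpd was the exception among the 10. It was 4.37 to 5.98 in control and 5.55 to 5.71 in CM libraries, and the groups overlapped (difference 0.19 on the log2 scale, exact permutation p = 0.4). The spread of the control libraries leaves a change of that ratio unresolved.

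Genes with the profile most like each member were found by the distance between centred log2 CPM (library-scaled count) values over the 6 libraries, among 11041 genes. Since the groups differ in so many genes, the nearest genes are mainly those with a like fold change. Nearest to Cebpa were Zranb3, a replication fork helicase gene, at a distance of 0.105, Fmnl1, a leukocyte formin gene, at 0.143 and Tbc1d8 at 0.159. Nearest to Cebpb were Rasl11a, Gapdh and Adgrg2, at 0.127 to 0.147. Gapdh, the glycolytic dehydrogenase gene, has many processed pseudogenes between which reads can be split, so its value is uncertain. Nearest to Cebpd were the vasopressin receptor gene Avpr1a, the inflammatory caspase gene Casp4 and the sphingomyelin synthase gene Sgms2, at 0.129 to 0.151. For Cebpg they were Lrrk1, Man1a2 and Pja2, at 0.0344 to 0.0384, and for Ddit3 Sap18, Rps2 and Tle5, at 0.0427 to 0.0565. Cebpd ranked 247th among the genes nearest to Cebpb, and Cebpb 487th among those nearest to Cebpd.

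Around the family, 8 lists of 104 genes were read: signals that induce Cebpb and Cebpd, regulators of C/EBP proteins, pairing partners and known target genes. Of these, 85 were in the fit, and 10 of the 85 passed the filter through the CM libraries alone, with a control mean under 1 FPKM. Such genes had to be higher in CM, so counts and medians of their lists are no support for a direction. For scale, 23.0% of all tested genes rose and 22.9% fell. The lists were chosen with earlier results of these data known, so an excess over these shares is no support for a list. The median log2 fold change of all tested genes was -0.0028.

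Of 14 genes for signals upstream of Cebpb and Cebpd, 13 were in the fit, 7 rose, 2 fell and 4 were not called (median 0.13), against 23.0% rising among all tested genes. With DESeq2, limma, or without control replicate 2 or any CM replicate, 6 rose. Il1r1, the interleukin 1 receptor gene, had FPKM values of 2.80, 2.74 and 3.04 in control libraries and 10.3, 9.80 and 10.7 in CM libraries. The groups lay far apart, and Il1r1 rose 3.62-fold (log2 fold change 1.86 ± 0.064, adjusted p = 1.1e-15 by edgeR). The oxygen-sensing factor gene Hif1a rose by 0.94 ± 0.040. Il6st, the shared signalling receptor of interleukin 6 cytokines, rose by 0.72 ± 0.046 and its kinase gene Jak2 by 0.67 ± 0.047. Stat3, the factor they activate, rose by 0.24 ± 0.042. In the other direction, Il6ra, which gives interleukin 6 specificity, averaged 6.22 ± 0.277 (SD, n = 3) FPKM in control and 3.30 ± 0.194 in CM libraries, a 1.86-fold fall. Spi1, the myeloid factor PU.1 that works with C/EBPα, was the other member that fell (-0.31 ± 0.047).

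Of 14 regulators of C/EBP proteins, 6 rose, 6 fell and 2 were not called (median -0.027). The number of rises was 4 with DESeq2, with limma, and without control replicate 1, CM replicate 2 or CM replicate 3, beside 5 or 6 falls. The Tribbles genes moved apart. The products of Trib1 and Trib2 bring the ubiquitin ligase COP1 to C/EBP proteins. Trib2 had FPKM values of 2.14, 2.16 and 2.57 in control libraries and 9.02, 9.80 and 10.8 in CM libraries, and rose 4.35-fold (log2 fold change 2.12 ± 0.089, adjusted p = 3.0e-14 by edgeR). Trib1 fell by 0.43 on the log2 scale (SE 0.065). Trib3, a target of ATF4 and CHOP, averaged 17.5 ± 1.64 (SD, n = 3) FPKM in control and 10.9 ± 0.839 in CM libraries and fell by 0.67. The levels of Trib2 and Trib3 thus came close together in CM from a wide gap in control medium. Cop1 itself changed by -0.19 ± 0.045, a small fall. Rps6ka1, a kinase gene whose product phosphorylates C/EBPβ, fell by 0.67, and the calreticulin gene Calr rose by 0.36. Celf1 and Eif4e, which bear on translation of C/EBP mRNA, rose by 0.29 ± 0.046 and 0.30 ± 0.045.

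Among leucine zipper partners, 10 of 13 genes were in the fit, of which 3 rose, 4 fell and 3 were not called (median -0.097). With limma on TPM, or without CM replicate 2 or 3, 2 rose. Falls numbered 3 without control replicate 3 or CM replicate 3, and 5 without CM replicate 1. Batf, a lymphoid and myeloid member of the AP-1 group, had FPKM values of 4.00, 3.01 and 3.93 in control and 10.7, 11.8 and 11.9 in CM libraries, a 3.18-fold rise. Nfil3, a repressor that binds sites close to those of C/EBP, rose by 0.84 ± 0.072. The stress factor gene Atf3 averaged 39.9 ± 0.476 (SD, n = 3) FPKM in control and 26.5 ± 0.769 in CM libraries, a fall of -0.57 ± 0.049. Fos and Atf5 changed by -0.37 ± 0.065 and -0.21 ± 0.050, both falls. Atf4, the partner of C/EBPγ and CHOP, was not called, at 90.2, 94.6 and 85.3 FPKM in control and 90.3, 87.2 and 87.7 in CM libraries (adjusted p = 0.88 by edgeR).

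Of 18 known acute phase and cytokine targets of C/EBPβ and C/EBPδ, 16 were in the fit and 15 rose (median 4.32). The filter had a part in this count: Arg1, Csf3, Cxcl1, Cxcl5, Il1b, Il6, Lcn2 and Nos2 had control means under 1 FPKM and passed through the CM libraries. Of the 8 with both means at 1 FPKM or more, 7 rose, from 1.04 ± 0.23 for Tnfaip6 and 1.08 ± 0.057 for Ptgs2, close to the 0.92 of Cebpb, up to 6.47 ± 0.052 for Saa3. Ptx3 was the member not called, at 146 ± 9.16 and 143 ± 1.77 FPKM (SD, n = 3). Saa3, an acute phase serum amyloid gene, had FPKM values of 23.7, 25.4 and 22.6 in control libraries against 2031, 2097 and 2146 in CM libraries. The largest fitted changes were those of Arg1 (9.22 ± 0.13), Cxcl5 (8.81 ± 0.17), Lcn2 (8.49 ± 0.070) and Csf3 (7.72 ± 0.18), on 17, 9, 122 and 9 control counts. Cxcl5 depended on control replicate 3, without which its fold was 298 against 450. With limma on log2(FPKM + 1) the folds of Arg1, Cxcl5, Lcn2 and Csf3 were 69.1, 35.6, 157 and 21.8, since the pseudocount exceeds their control levels. Many of these genes also answer to NF-kB, and which factor acts on them was not measured.

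Granulocyte targets of C/EBPα and C/EBPε gave 7 of 13 genes in the fit, of which 5 rose and 2 fell (median 1.80). Camp and Mmp9 passed the filter through the CM libraries alone. Ngp, a neutrophil granule gene with 77 control and 22 CM counts, lay below it, and 3 genes fell with filterByExpr or without a filter. Without a filter, 6 genes rose. Mmp8, the neutrophil collagenase gene, averaged 2.91 ± 0.405 (SD, n = 3) FPKM in control and 84.3 ± 4.56 in CM libraries. The integrin gene Itgam rose by 1.80 ± 0.043, Mmp9 by 3.35 ± 0.11 and Csf3r, the receptor gene for granulocyte colony-stimulating factor, by 1.10 ± 0.070. Camp rose by 2.69 ± 0.42 on low levels of 0.283 ± 0.129 and 1.88 ± 0.0404 FPKM. With limma on log2(FPKM + 1) the fold of Camp was 2.25 in place of 6.46 and that of Mmp9 4.71 in place of 10.2. The defining primary granule genes stayed near 0 in both groups: Elane and Prtn3 reached 0.160 and 0.110 FPKM at most, and Mpo 0.290. Mpo had 1 control count and 24 CM counts. Both falls, Lyz2 and Il6ra, and the rise of Itgam concern genes that macrophages also express.

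Fat cell targets of C/EBPα gave 6 of 12 genes in the fit, with 2 rises, 3 falls and 1 not called (median -0.12). Lpl, the lipoprotein lipase gene, had FPKM values of 98.5, 108 and 148 in control libraries and 36.3, 35.2 and 34.5 in CM libraries. It fell 3.31-fold (log2 fold change -1.73 ± 0.094, adjusted p = 2.1e-12 by edgeR). Pparg, the fat cell nuclear receptor gene with which C/EBPα acts, changed by -0.36 ± 0.081 and the fatty acid receptor gene Cd36 by -0.22 ± 0.039. Fabp4, a fatty acid carrier gene, rose by 1.33 ± 0.053 and Scd1 by 0.31 ± 0.062. Lpl, Cd36, Pparg and Fabp4 are also macrophage genes. Of 8 fat cell markers, 7 lay below the filter, and Adipoq was at 0.330 ± 0.165 and 0.0967 ± 0.0379 FPKM.

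Of 14 genes of CHOP and the integrated stress response, 7 fell, 1 rose and 6 were not called (median -0.19). Among all tested genes 45.9% were called, 23.0% as rises and 22.9% as falls. The share called in this list, both directions together, was near the background. Its calls were mostly falls, but the list was chosen with earlier results of these data known, so this is no support for a direction. Chac1, a glutathione-degrading enzyme gene induced through ATF4 and CHOP, had FPKM values of 10.7, 9.70 and 8.04 in control and 4.96, 4.61 and 3.87 in CM libraries. It fell 2.09-fold (log2 fold change -1.06 ± 0.12, adjusted p = 2.9e-07 by edgeR). Trib3, Ddit4, Atf3 and Bbc3 fell by 0.67, 0.58, 0.57 and 0.56 on the log2 scale. Ero1a, an oxidase gene of protein folding that hypoxia also induces, was the single rise (0.54 ± 0.045), though 2 genes of the list rose when CM replicate 3 was left out. Ddit3 itself was not called beside these falls, nor was the chaperone gene Hspa5 (-0.011 ± 0.037, adjusted p = 0.83 by edgeR).

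Of 10 osteoblast genes linked to C/EBP factors, 9 were in the fit, of which 7 fell and 2 rose (median -0.29). Among all tested genes, 22.9% fell and 23.0% rose. These bulk values cannot be assigned to bone-forming cells. Igf1, the growth factor gene that C/EBPδ activates in rat osteoblasts, averaged 41.5 ± 2.62 (SD, n = 3) FPKM in control and 8.75 ± 1.11 in CM libraries. This was a 4.69-fold fall (adjusted p = 1.2e-16 by edgeR), and any link to the rise of Cebpd was not tested. Ibsp and Sp7, the bone sialoprotein and osterix genes, changed by -3.33 ± 0.15 and -1.57 ± 0.12, both falls. The collagenase gene Mmp13 and the RANKL gene Tnfsf11 rose by 1.32 ± 0.063 and 1.57 ± 0.13.

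**Figure D4:**
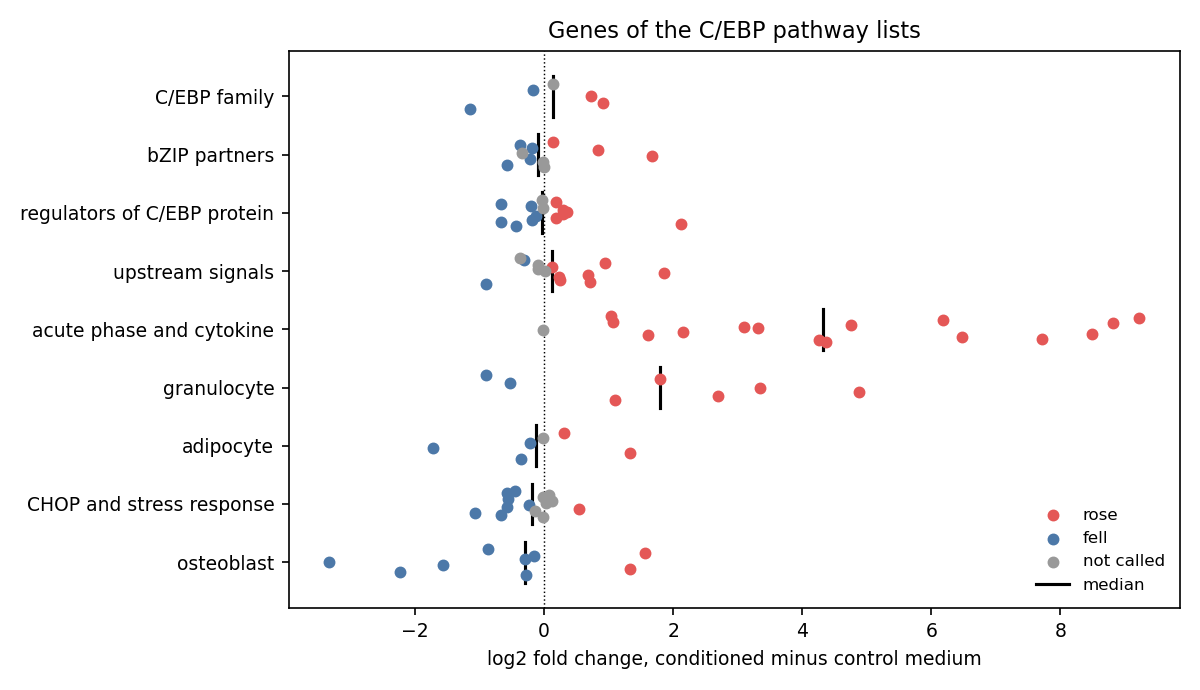
Log2 fold changes (x axis, CM minus control) of the tested genes of the C/EBP family and of 8 lists around it (rows), coloured by call, with a black line at each median. The acute phase and cytokine row reaches 9.22, and 8 of its 16 genes passed the filter through the CM libraries alone, while the family itself spans -1.14 to 0.92.

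Markers of the cell types that express C/EBP genes also differed between the groups. Among all tested genes, 23.0% rose and 22.9% fell. Of 10 macrophage markers, 6 fell and 4 rose (median -0.33), and their summed FPKM was 8375 to 9697 in control and 6106 to 6796 in CM libraries. Lyz2 made up 73.2% and 69.9% of that sum. Csf1r, the macrophage growth factor receptor gene, fell by 1.35 on the log2 scale and C1qa by 0.93, while Cd68 and Mertk changed by -0.33 and -0.34. The 4 rises were those of Itgam (1.80), Fcgr1 (1.14), Adgre1 (0.37) and Mrc1 (0.11). All 7 tested osteoblast markers of 8 fell (median -0.58, summed FPKM 817 to 905 against 653 to 706, of which Col1a1 made up 91.5% and 93.9%). Of 10 neutrophil markers 4 were in the fit, 3 rose and S100a9 fell (adjusted p = 0.027 by edgeR, not called without control replicate 2, CM replicate 2 or CM replicate 3). Of these 4, Camp passed the filter through the CM libraries alone and S100a9 through the control libraries alone. The summed FPKM of all 10 was 11.8 to 15.3 against 39.2 to 42.4. Most of it was S100a8 (3.71 ± 0.936 and 24.5 ± 1.84, SD, n = 3) and Csf3r (6.00 ± 0.199 and 12.7 ± 0.970). Below the filter, Ltf, Ngp and Retnlg had 28, 77 and 3 control counts against 17, 22 and 0 CM counts. Mpo, Elane and Prtn3 had 1, 0 and 2 control counts against 24, 3 and 10 CM counts. The summed FPKM of fat cell markers was 9.43 to 10.3 against 21.7 to 23.8, nearly all of it Fabp4. The part of these differences in the C/EBP changes was not tested. Of 8 liver and hepatoma markers, Ttr, Apoa1, Hnf4a, Serpina1a and Krt8 were at 0 counts in every library, and the summed FPKM was 1.31 to 1.47 against 1.39 to 1.54.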

How the data were processed

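RNA of BMSC cultures was sequenced as poly(A) paired-end libraries, 3 per group. Build GRCm39 and the tools HTSeq 0.6.1, HISAT2 2.0.1, DESeq2 and cutadapt 1.9.1 come from the submitters' processing notes, which state no role or order. Per the file headers, the authors deposited for each gene a raw count and an FPKM value in every library, with exonic length and position. The deposited FPKM equalled count over length and library total in 100% of cases (tolerance 0.006).

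Counts were tested with edgeR 4.0.16 (R 4.3.3): quasi-likelihood test, TMM factors, group as the single term, genes with a mean of at least 1 FPKM over 6 libraries, and Benjamini-Hochberg adjustment. SE was obtained by dividing the unshrunk log2 fold change by the root of F, and 95% intervals use it. The fit was first tested on simulated data. Alternatives were DESeq2 1.42.0 and its size factors, limma 3.58.1 on log2 FPKM or TPM, other filters, a replicate block and each library left out. Ratios used exact permutation tests (Python 3.11.15). Replicates differed beyond sampling noise (chi-square 2.24 to 9.03 times its degrees of freedom). Named genes were all members, the 3 genes nearest to each, and up to 5 called genes with the largest change per list, and others were picked after their values were seen. Members and lists were chosen with earlier results of these data known. The planned protein comparison was not made, because no protein sequences were used here.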

Additional observations from a re-analysis of the deposited data

How the results depend on the processing

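Cebpa, Cebpb, Cebpd and Cebpg kept their direction and their call in all 14 alternatives. Log2 fold changes ranged from -1.19 to -1.08 for Cebpa, 0.85 to 0.99 for Cebpb, 0.58 to 0.78 for Cebpd and -0.23 to -0.15 for Cebpg. For Ddit3 the range over all alternatives, and with each library left out in turn, was 0.071 to 0.19 (adjusted p from 0.032 to 0.35), and the call without control medium replicate 1 was the only call. Genes called overall numbered 4769 to 5873 with a library left out, 5028 with DESeq2 and 6421 with filterByExpr, against 5578. Of the genes named for their change, S100a9 lost its call with DESeq2 and without control medium replicate 2 or conditioned medium replicate 2 or 3 (adjusted p = 0.054 to 0.12), and the cause was not tested. With the replicate number as a block, 5662 genes were called, and Cebpa had -1.14, Cebpb 0.92, Cebpd 0.73, Cebpg -0.18 and Ddit3 0.14 on the log2 scale, with no call of a member changed. Deviations of same-numbered libraries correlated by -0.0042, 0.039 and 0.051, against -0.059 to 0.019 for libraries with different numbers. These values cannot show whether same-numbered libraries shared a culture or batch, which the sources used here do not state. No ratio between members reversed. Cebpe is limited by its 15 counts in all.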
